A study of Mus musculus with 6 samples.

Results

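The genes described here are the mouse zinc finger genes whose symbol is Zfp followed by a number, in RNA sequencing of epididymal white adipose tissue, the fat that lies around the epididymis. A gene was a member when its symbol had that form and its mean over the 6 libraries was at least 3 FPKM (a fragment count scaled for transcript length and library size). Zfp251, Zfp7, Zfp647, Zfp623, Zfp707 and Zfp423 were left out by the rule. Such a name was carried by 365 of the 21829 genes measured, 184 of them reached 3 FPKM, and 4 of those 184 were among the genes left out, so that 180 members remained. A further 181 Zfp-named genes lay under 3 FPKM, and 11 of them were listed at 0 in every library. The members were thus chosen by their measured mean level over all libraries, and their levels are given as a description. The threshold itself used no comparison between genotypes, but the genes left out include Zfp251, the gene named as knocked out. The members were chosen with earlier results of these data known.

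The tissue came from male C57BL/6J mice aged 20 weeks and kept on a normal diet, 3 libraries being labelled as ZFP251 knockout (KO) and 3 as wild type (WT), from littermates of the knockouts. The labels name neither the allele nor the cells in which the gene is lost, and they do not say whether each library came from a mouse of its own, so each p-value below stands for the spread among libraries, part of which may be technical. The targeted gene went against the labels. Zfp251, the gene named as knocked out, had 6.48, 5.86 and 6.48 FPKM in the KO-labelled libraries, against 3.73, 3.56 and 2.95 FPKM in WT, and the groups did not overlap. For that reason every direction is given as that of the KO-labelled libraries.

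Most Zfp proteins carry a row of C2H2 zinc fingers, small folds in which paired cysteines and histidines hold a zinc ion and which read DNA bases in turn. Many also carry a KRAB domain near the amino end, which binds the co-repressor TRIM28 and through it brings histone methylation and silent chromatin to the bound sequence, often a transposable element. Others have no KRAB domain and act as promoter-binding activators or repressors, RNA-binding proteins or ubiquitin ligases, and several of these are known from studies of fat cell formation. The name is shared by proteins of unlike function.

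The libraries differed in ways that the groups do not give. Summed over every gene, the table gave 426966, 428924 and 439354 FPKM for the KO-labelled libraries in number order, and 472120, 468499 and 637902 FPKM for WT. Depth is unknown, since the table holds no counts. Of 19 markers of multiciliated and other epithelial cells, 18 had higher values in the KO-labelled libraries at an unadjusted p under 0.05. These markers summed to between 180 and 330 FPKM in the KO-labelled libraries, against 143 FPKM in WT 1, 42.8 FPKM in WT 2 and 54.5 FPKM in WT 3. At 0 stood 4 of the 19 in WT 2 and 7 of the 19 in WT 3, where the motile cilia regulator Foxj1 was at 0. The 8 adipocyte markers, which define the labelled tissue, summed to between 25700 and 31200 FPKM in the KO-labelled libraries. In WT they summed to between 35400 and 68800 FPKM, the highest in WT 3. Cfd and Fabp4 made up most of that sum, at 33638 and 23451 FPKM in WT 3. Of the 8 only Cidec, which was lower, had an unadjusted p under 0.05. Log2 differences of the 8 ran from -0.78 in Cfd to -0.09 in Plin1. Erythroid markers were lower in all 5 genes. Immediate early genes summed to between 129 and 180 FPKM in the KO-labelled libraries, against 295, 311 and 84.1 FPKM in the WT libraries. Macrophage markers were lower in 3 of 6 genes, spermatid and sperm markers higher in 1 of 7 (Spata18), and endothelial and mesothelial markers had none at that p. The spermatid and sperm markers crossed the groups, with KO 2 and WT 1 far above the rest. They summed to 19.6, 109 and 6.81 FPKM in the KO-labelled libraries, against 132, 0.959 and 0.455 FPKM in WT. In bulk tissue, fewer cells of a type and less RNA per cell cannot be told apart. The part of these differences in the values below was not tested, apart from a fit with the epithelial markers as a covariate.

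To show the DNA in front of the genes whose values separated most clearly, the 250 bases before the transcription start are printed for the 4 members with lower and the 2 with higher values that had the smallest p and an entry in the RefSeq promoter table of build GRCm38.p6. Each is read 5′ to 3′ on the gene's own strand. Capitals mark the letters of 4 motifs on either strand: the GC box GGGCGG, the CCAAT box CCAAT, the ETS core CGGAAG and the E box CACGTG. The members with lower values were Zfp68 (chr5:138619744-138619993, minus strand), Zfp655 (chr5:145231492-145231741, plus strand), Zfp110 (chr7:12834511-12834760, plus strand) and Zfp809 (chr9:22225462-22225711, plus strand).
Zfp68: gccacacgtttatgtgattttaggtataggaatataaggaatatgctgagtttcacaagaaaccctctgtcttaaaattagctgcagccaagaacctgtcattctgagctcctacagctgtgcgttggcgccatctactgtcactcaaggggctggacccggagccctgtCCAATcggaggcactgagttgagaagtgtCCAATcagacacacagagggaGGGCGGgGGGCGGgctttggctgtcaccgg
Zfp655: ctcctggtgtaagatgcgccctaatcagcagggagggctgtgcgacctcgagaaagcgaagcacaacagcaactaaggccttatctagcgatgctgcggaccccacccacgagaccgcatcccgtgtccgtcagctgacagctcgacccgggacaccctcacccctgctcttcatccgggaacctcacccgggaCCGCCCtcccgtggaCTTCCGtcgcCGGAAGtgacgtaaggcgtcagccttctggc
Zfp110: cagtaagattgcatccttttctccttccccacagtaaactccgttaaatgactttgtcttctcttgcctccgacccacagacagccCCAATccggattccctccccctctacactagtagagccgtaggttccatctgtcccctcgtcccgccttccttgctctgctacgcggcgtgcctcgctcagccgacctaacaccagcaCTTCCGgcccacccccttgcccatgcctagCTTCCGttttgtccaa
Zfp809: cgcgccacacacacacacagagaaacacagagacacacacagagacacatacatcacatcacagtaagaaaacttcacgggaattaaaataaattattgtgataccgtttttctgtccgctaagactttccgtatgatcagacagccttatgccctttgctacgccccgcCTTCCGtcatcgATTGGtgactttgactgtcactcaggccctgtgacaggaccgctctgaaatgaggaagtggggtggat

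The members with higher values were Zfp946 (chr17:22423952-22424201, plus strand) and Zfp185 (chrX:72987089-72987338, plus strand), shown for the same reason. Zfp704, whose p lay between theirs, had no entry.
Zfp946: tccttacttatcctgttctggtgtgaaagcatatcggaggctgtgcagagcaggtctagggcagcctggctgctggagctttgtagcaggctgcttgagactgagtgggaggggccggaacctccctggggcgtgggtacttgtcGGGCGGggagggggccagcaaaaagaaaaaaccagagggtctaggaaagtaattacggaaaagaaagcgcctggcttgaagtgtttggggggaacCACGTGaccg
Zfp185: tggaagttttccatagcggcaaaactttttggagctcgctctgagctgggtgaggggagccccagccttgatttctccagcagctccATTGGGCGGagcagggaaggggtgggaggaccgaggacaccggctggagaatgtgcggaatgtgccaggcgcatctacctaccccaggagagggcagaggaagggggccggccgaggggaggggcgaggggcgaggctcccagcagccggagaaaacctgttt

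The 4 promoters of the members with lower values had none of the 4 motifs in common. Zfp68 held 2 GC boxes and 2 CCAAT boxes, Zfp655 held 1 GC box and 2 ETS cores, 1 on each strand, Zfp110 held 1 CCAAT box and 2 ETS cores, and Zfp809 held 1 CCAAT box and 1 ETS core. In Zfp185 the CCAAT box on the other strand, ATTGG, runs into the GC box, so that the capitals form a single stretch. Zfp946 held 1 GC box and 1 E box.

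Over all members, 148 of 180 matched a promoter. CCAAT boxes stood in 50% of these 148, against 36.0% of the promoters of all genes tested and 34.3% of all 27025 promoters of the same length. GC boxes stood in 52.7% of the members' promoters, against 59.8% of those of genes tested and 33.0% of all promoters. ETS cores were in 27.0%, against 25.4% and 13.8%, and E boxes in 6.76%, against 8.39% and 6.0%. Members with a KRAB-like stretch had a CCAAT box in 58.8% and a GC box in 45.6% of their promoters, while members without one had 42.5% and 58.8%. A match of these letters is a description of the window and shows no binding.

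Within the proteins, translated from the transcript with the longest coding sequence, 174 of the 180 members had at least 1 C2H2 finger. The longest row was the 40 fingers of Zfp142, followed by 30 in Zfp236 and 28 in Zfp521. No finger of this kind was found in Zfp36, Zfp703, Zfp503, Zfp185, Zfp330 or Zfp839. Zfp36 instead held 2 fingers of the CCCH kind, which bind RNA. A stretch with the letters of a KRAB box, sought in the proteins of every transcript of the gene, was found in 76 members. These had, as medians, 12 fingers, a transcript of 3088 nt with 40.8% GC and a level of 4.99 FPKM. The 104 members without it had medians of 7 fingers, 3635 nt, 52.0% GC and 7.71 FPKM. Members with the KRAB-like stretch lay lower in level and in GC content in this tissue, given as a description.

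The members were spread over the genome unevenly. Chromosome 7 held 39, chromosome 17 held 23 and chromosome 8 held 15. With neighbouring starts no more than 500000 bp apart, 9 clusters of 4 or more members together held 59 of the 180. The largest lay at chr17:21008903-23564238 (GRCm38) and held 14 members, 13 of them with a KRAB-like stretch, at a median level of 4.42 FPKM. Clusters of KRAB zinc finger genes arise by tandem duplication, and their members can share reads. The protein pairs with the highest identity were Zfp110 and Zfp369 at 83.8%, Zfp942 and Zfp944 at 78.9%, and Zfp970 and Zfp971 at 77.2%, each counted over the longer protein. How reads that fit both genes were counted is not given in the sources used here, so the levels of these 6 genes are uncertain.

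The members were of low to middling abundance. Their median level was 6.29 FPKM, against 13.7 FPKM over the 10578 genes tested at 3 FPKM or more. In all 17 members had 20 FPKM or more, 56 had 10 FPKM or more and 62 lay under 5 FPKM. Just above the threshold stood Zfp229 (mean 3.00 FPKM), Zfp429 (3.04 FPKM), Zfp963 (3.04 FPKM) and Zfp65 (3.11 FPKM), and just below it Zfp52 (2.99 FPKM), Zfp747 (2.99 FPKM), Zfp282 (2.94 FPKM) and Zfp846 (2.93 FPKM). The level of Zfp963 is uncertain, since 40.8% of its exon bases are shared with another coding gene on the same strand. Both group means were at least 3 FPKM in 173 members. The mean of the KO-labelled libraries was under 3 FPKM in 5 of the other members and that of WT in 2.

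**Figure D1:**
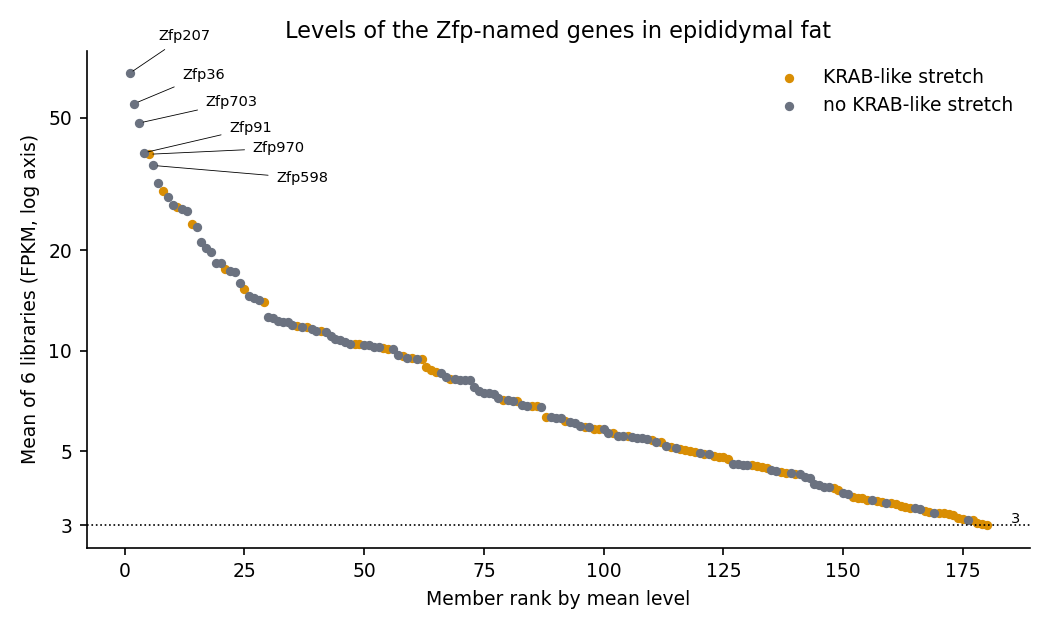
Mean level of each of the 180 members over the 6 libraries (y axis, FPKM on a log scale) against its rank from highest to lowest (x axis). Colour shows whether a protein of the gene holds a KRAB-like stretch, the 6 highest are named and a dotted line marks 3 FPKM. The highest is Zfp207 at a mean of 67.9 FPKM, 17 members lie at 20 FPKM or more, and of the 6 named Zfp970 alone carries the KRAB-like stretch.

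Zfp207 was the most abundant member. It encodes a spindle and kinetochore protein, also called BuGZ, that binds the checkpoint protein BUB3. Its level was 64.4, 61.5 and 65.0 FPKM in the KO-labelled libraries, against 66.8, 69.5 and 80.3 FPKM in WT. Every library labelled KO lay under every WT library, KO 3 and WT 1 being the nearest pair, and the log2 difference of -0.17 had a standard error of 0.11 (limma adjusted p = 0.53). Without WT 3 it was -0.10, and with quantile normalization its sign turned, to 0.012.

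Next came Zfp36, which encodes tristetraprolin, a protein that binds AU-rich elements and hastens the decay of cytokine and growth factor messages. It had 52.3, 57.7 and 36.6 FPKM in the KO-labelled libraries, against 71.2, 73.9 and 39.0 FPKM in WT. KO 3 and WT 3 were low together and the groups overlapped, and the log2 difference of -0.29 was -0.59 without WT 3. Zfp36 is itself an early response gene. Its lowest library was KO 3, with WT 3 next. In the summed immediate early markers WT 3 was the lowest, at 84.1 FPKM, and KO 3 came next, at 129 FPKM. A link between them was not tested.

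Zfp703, a co-repressor of the Noc family, had 42.3, 38.5 and 55.5 FPKM in the KO-labelled libraries, against 60.3, 56.9 and 35.6 FPKM in WT. WT 3 was the lowest of all and KO 3 lay beside the other WT libraries. Zfp91, a ubiquitin ligase of the NF-kappa B pathway, ran from 35.9 to 40.1 FPKM in the KO-labelled libraries and from 39.3 to 41.0 FPKM in WT, so that its 6 values lay close together. Zfp970, a member with 14 fingers and a KRAB-like stretch, had 39.5, 31.9 and 26.4 FPKM in the KO-labelled libraries, against 34.6, 37.3 and 63.4 FPKM in WT, where WT 3 alone stood far above the rest. Its log2 difference of -0.42 was -0.16 without WT 3. Zfp598, the ubiquitin ligase that marks collided ribosomes, had 41.3, 32.5 and 38.6 FPKM in the KO-labelled libraries, against 29.5, 44.9 and 28.9 FPKM in WT, and the groups overlapped.

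Across libraries the members varied little. The range of a member over the 6 libraries, on the log2(FPKM + 1) scale, had a median of 0.393, against 0.563 over all genes tested at 3 FPKM or more. Other zinc finger genes at that level had medians of 0.404 (Zscan- and Zkscan-named) and 0.504 (Zbtb-named). The members lay lower in level than all genes, and on this scale the change of a low gene is understated. The range was under 1 in 174 of 180 members, and it ran from 0.13 to 1.38. The 6 members at 1 or more, named after their values were seen, were Zfp87, Zfp366, Zfp970, Zfp503, Zfp979 and Zfp771. Zfp87 had 6.51, 12.2 and 10.3 FPKM in the KO-labelled libraries, against 9.57, 11.96 and 18.5 FPKM in WT. Zfp366, a nuclear receptor co-repressor, had 6.73, 7.19 and 5.64 FPKM in the KO-labelled libraries, against 6.13, 8.18 and 2.68 FPKM in WT. In 5 of these 6 members WT 3 was the highest or the lowest library, high in Zfp87, Zfp970 and Zfp771 and low in Zfp366 and Zfp979. Zfp503, a relative of Zfp703, was the exception, with 12.96, 14.7 and 30.05 FPKM in the KO-labelled libraries, against 30.96, 19.8 and 19.2 FPKM in WT.

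The position of WT 3 went with transcript length. WT 3 was the highest library in 66 members (36.7%), whose median transcript was 2644 nt, and the lowest in 46 (25.6%), whose median was 5204 nt. Over all genes tested at 3 FPKM or more WT 3 was the highest in 44.5% and the lowest in 25.3%. Across the 180 members the deviation of WT 3 from the gene's mean had a Pearson r of -0.461 with log2 length, a description over genes that share this library. For the 23 members under 2000 nt the median deviation was -0.061, -0.092 and -0.045 in KO 1, KO 2 and KO 3, against -0.078, -0.003 and 0.221 in the WT libraries in number order. For the 30 members over 6000 nt it was 0.055, 0.021 and -0.028 in the KO-labelled libraries, against 0.058, 0.116 and -0.202 in WT. In WT 3 short members stood high and long members low.

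**Figure D2:**
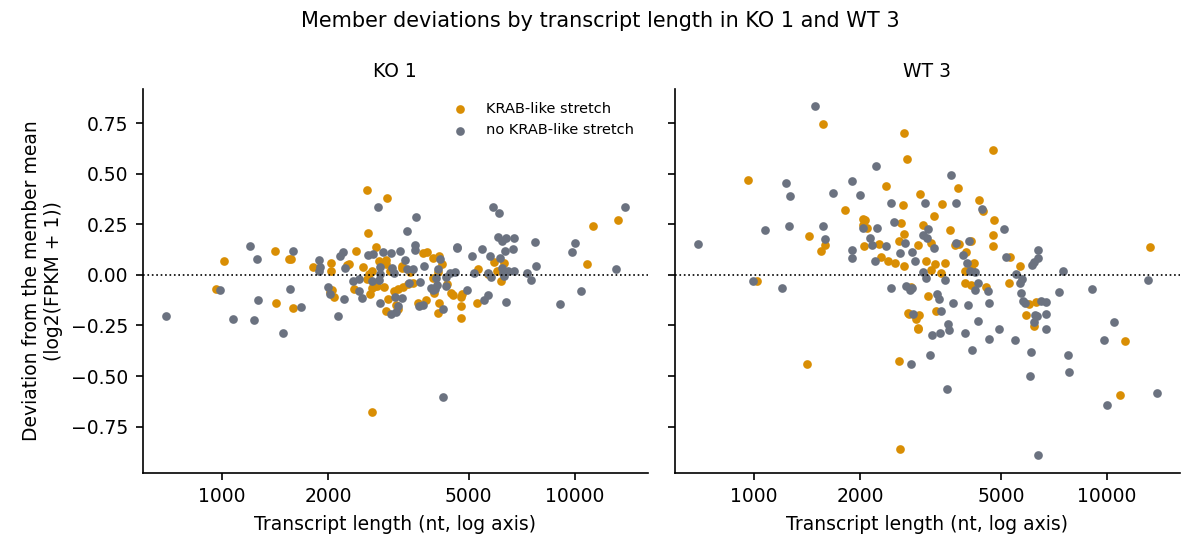
Deviation of KO 1 (left) and of WT 3 (right) from the member's mean over the 6 libraries (y axis, log2(FPKM + 1)) against transcript length (x axis, nt on a log scale), with 1 point for each of the 180 members, coloured by the KRAB-like stretch. In WT 3 the points slope downward (Pearson r -0.461), with a median of 0.221 for the 23 members under 2000 nt and -0.202 for the 30 over 6000 nt, while in KO 1 these medians are -0.061 and 0.055.

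Between the groups no member passed the threshold. With limma on log2(FPKM + 1) over 12539 genes, 0 members had an adjusted p under 0.05, against a background of 0 percent of all genes (0 of 12539), and the smallest adjusted p was 0.223. An unadjusted p under 0.05 was reached by 7 members (3.89%), 3 of them higher and 4 lower in the KO-labelled libraries. Over all genes tested that share was 13.6%, with 9.13% higher and 4.43% lower, and among the genes tested at 3 FPKM or more it was 11.5%. The members' share was thus under that of all genes, most plainly on the higher side. Zfp251, which the rule left out, was itself higher (limma unadjusted p = 0.00059). Sample weights gave the least weight to WT 3 (0.142) and WT 2 (0.472) and the most to WT 1 (4.02). The WT side of that fit thus rested mostly on WT 1. There 3 members passed the adjusted threshold where 7.74% of all genes did: Zfp219 (0.31, limma adjusted p = 0.048), Zfp444 (0.39, limma adjusted p = 0.0491) and Zfp655 (-0.41, limma adjusted p = 0.0367). Without WT 1 3.84% of all genes passed and 0 members did.

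In direction the members leaned to the lower side, as did the table as a whole. Values were lower in the KO-labelled libraries for 117 of 180 members (65.0%) and for 59.2% of all genes tested. The median log2 difference was -0.06 over the members and -0.05 over all genes. Among the genes tested at 3 FPKM or more, the threshold of the members, 62.9% were lower and the median was -0.07. The groups did not overlap in 20 members with lower values (11.1%) and in 2 with higher values (1.11%, Zfp704 and Zfp553), against 12.2% and 10.1% of all genes. At 3 FPKM or more these shares were 13.6% and 7.82% of the genes tested. A share of 11.1% is close to the background, and 1.11% is under it. The median over members stayed below 0 under the 17 other settings tried, those that leave out a library among them. Beside the members described in what follows and Zfp207, 11 had lower values and no overlap, with log2 differences from -0.26 (Zfp429) to -0.10 (Zfp180), and were noted after their values were seen.

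Members with a KRAB-like stretch had lower values more often. Of these 76 members 56 had lower values, at a median log2 difference of -0.10, against 61 of the 104 members without it, with a median of -0.03. All 4 members with lower values at an unadjusted p under 0.05 carried the stretch, which is 5.26% of the 76, against 4.43% of all genes tested. So did 13 of the 20 with lower values and no overlap, or 17.1% of the 76, against 12.2% of all genes tested and 13.6% of those at 3 FPKM or more. Both shares are near those of all genes. The split was made after the values were seen and has no test. It did not hold its order under a correction for transcript length and GC content, where the median was -0.03 with the stretch and -0.06 without. Transcripts of the members with the stretch were shorter and poorer in GC, as given above, and their median deviation in WT 3 was 0.10, against -0.025 for the others. Over the members the deviation of WT 3 had a Pearson r of -0.461 with log2 length and of 0.011 with GC content. Whether length or GC content has a part in the split was not tested. Without WT 3 the medians were -0.09 and -0.04, and with quantile normalization -0.21 and -0.05. For members without the stretch the median changed sign without WT 2, to 0.02, and with the epithelial covariate, to 0.03.

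**Figure D3:**
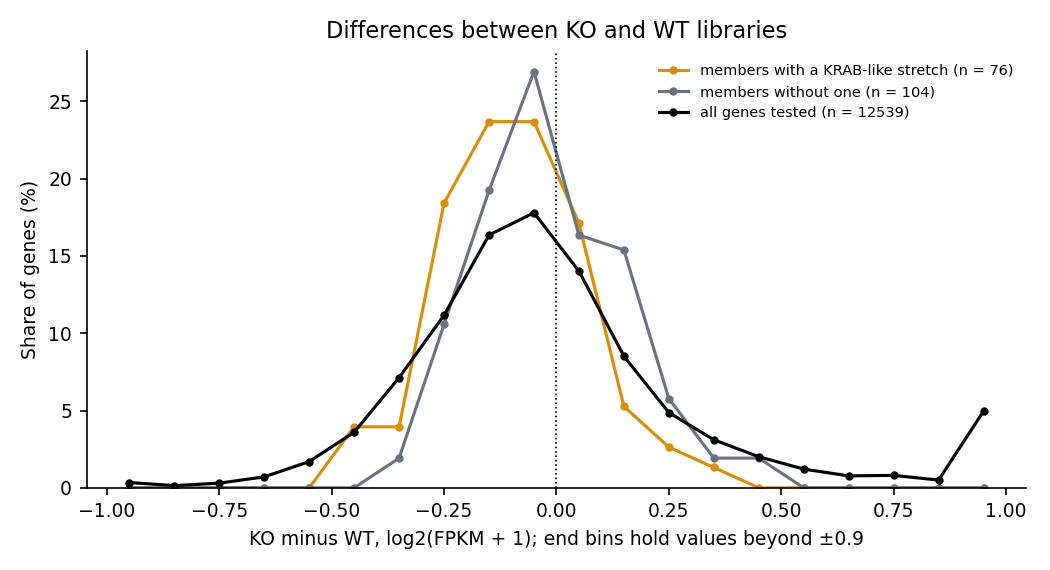
Share of genes (y axis, %) by their difference between KO-labelled and WT libraries (x axis, KO minus WT on the log2(FPKM + 1) scale), for the 76 members with a KRAB-like stretch, the 104 without it and all 12539 genes tested, the end points holding every value beyond the axis. Medians are -0.10, -0.03 and -0.05 in that order, and the members' curves lack the tails of all genes.

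The 8 members with the smallest p among those with lower values were Zfp655, Zfp809, Zfp110, Zfp68, Zfp932, Zfp931, Zfp869 and Zfp386, and each of the 8 carried the KRAB-like stretch. Zfp655 (ENSMUSG00000007812, chr5:145231715-145247302, plus strand) has 6 fingers and was first described as a partner of the signalling protein VAV. It had 20.7, 19.9 and 19.9 FPKM in the KO-labelled libraries, against 27.1, 29.9 and 26.7 FPKM in WT. The groups stood apart by more than the range within either. On the log2 scale the difference was -0.45 ± 0.096 (SE; limma unadjusted p = 0.00242, adjusted p = 0.223), and it ran from -0.48 to -0.38 over the 17 alternatives.

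Zfp809 (ENSMUSG00000057982, chr9:22225714-22243354, plus strand) binds the primer binding site of murine leukaemia viruses and silences their copies in the genome through TRIM28. It had 24.2, 23.1 and 23.1 FPKM in the KO-labelled libraries, against 28.2, 32.6 and 30.6 FPKM in WT. The lowest WT value lay above the highest of the KO-labelled libraries. On the log2 scale the difference was -0.36 ± 0.10 (SE; limma unadjusted p = 0.00892, adjusted p = 0.223). It was -0.42 to -0.21 over the alternatives, the smallest size being with the length and GC correction.

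Zfp110 (chr7:12834761-12850577, plus strand), also called Nrif, encodes a partner of the neurotrophin receptor p75. Its level was 15.8, 14.4 and 16.9 FPKM in the KO-labelled libraries and 18.5, 19.6 and 20.6 FPKM in WT, with no overlap and a log2 difference of -0.30 (limma adjusted p = 0.282). Over the alternatives it ran from -0.35 to -0.14, the smallest size being with the epithelial covariate. Zfp369, its near copy on chromosome 13, had 6.05, 5.57 and 5.03 FPKM in the KO-labelled libraries, against 6.66, 7.13 and 4.64 FPKM in WT, where the groups overlapped.

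Zfp68 (chr5:138603652-138619761, minus strand) had 12.98, 15.3 and 13.5 FPKM in the KO-labelled libraries, against 15.999, 17.1 and 16.9 FPKM in WT. Its groups did not overlap, though KO 2 lay close to WT 1, and the log2 difference was -0.25 (limma adjusted p = 0.364). Zfp386 had 13.01, 12.03 and 13.2 FPKM in the KO-labelled libraries, against 15.4, 13.5 and 17.02 FPKM in WT, and Zfp932 had 7.97, 8.60 and 7.002 FPKM in the KO-labelled libraries, against 9.41, 9.04 and 10.4 FPKM in WT. Neither overlapped, although KO 3 and WT 2 lay close together in Zfp386. In Zfp931 and Zfp869 the groups met: Zfp931 had 8.03, 7.13 and 7.12 FPKM in the KO-labelled libraries, against 9.34, 7.99 and 12.1 FPKM in WT, and Zfp869 had 10.3, 12.2 and 9.72 FPKM in the KO-labelled libraries, against 12.2, 13.2 and 13.1 FPKM in WT. The log2 difference of Zfp931, -0.34, was -0.20 without WT 3. With the length and GC correction it was -0.12 in Zfp931, -0.07 in Zfp869 (from -0.24) and -0.13 in Zfp932 (from -0.26). In Zfp655, Zfp110 and Zfp68 it was -0.38, -0.26 and -0.20 there. Zfp386 ran from -0.32 to -0.16 over the alternatives.

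**Figure D4:**
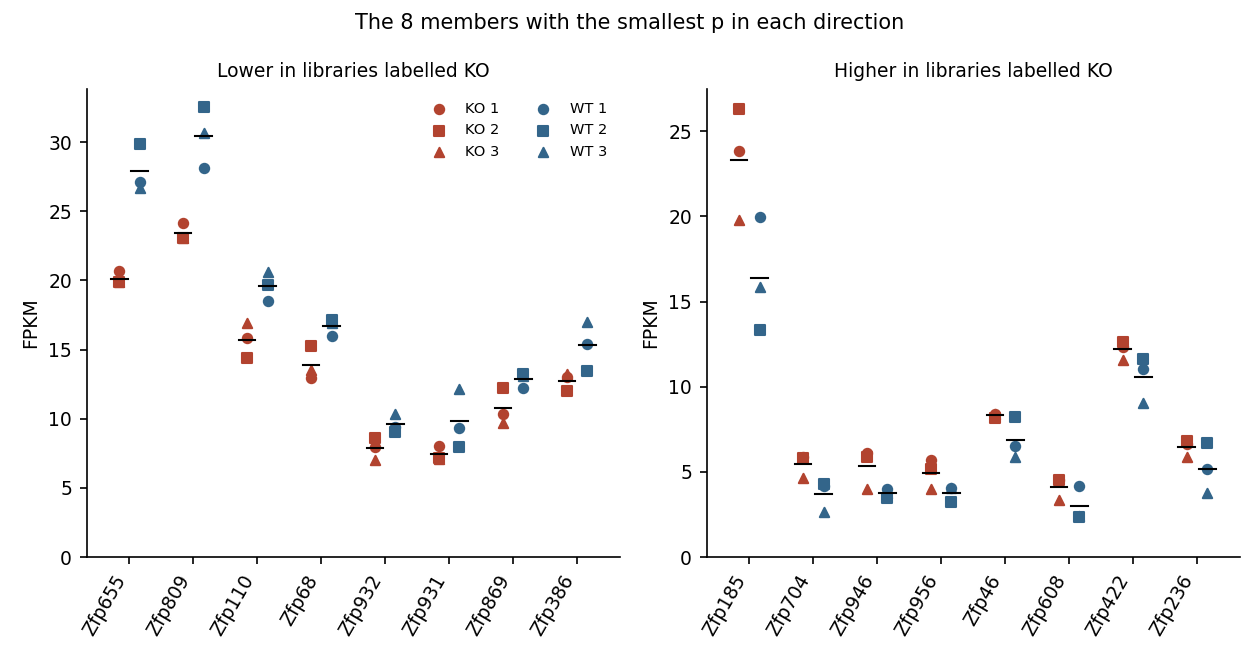
FPKM in each library (y axis) of the 8 members with the smallest p and lower values (left) and the 8 with the smallest p and higher values (right), 1 symbol a library, KO-labelled libraries left of WT for each member, with the group mean as a black line. In Zfp655 the KO-labelled libraries lie between 19.9 and 20.7 FPKM, under the WT values of 26.7 to 29.9 FPKM, while the groups overlap in 7 of the 8 members with higher values.

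The 8 members with the smallest p among those with higher values were Zfp185, Zfp704, Zfp946, Zfp956, Zfp46, Zfp608, Zfp422 and Zfp236, of which only Zfp946 carried the KRAB-like stretch. Zfp185 (ENSMUSG00000031351, chrX:72987339-73031543, plus strand) is no finger protein of the C2H2 kind but a LIM domain protein of the actin cytoskeleton. It had 23.8, 26.3 and 19.8 FPKM in the KO-labelled libraries, against 20.0, 13.4 and 15.9 FPKM in WT. KO 3 and WT 1 met in the middle. On the log2 scale the difference was 0.49 ± 0.17 (SE; limma unadjusted p = 0.0257, adjusted p = 0.292), and with the epithelial covariate it was -0.03.

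Zfp704 (chr3:9427020-9610085, minus strand) was the 1 member of the 8 whose groups did not overlap. It had 5.86, 5.84 and 4.62 FPKM in the KO-labelled libraries, against 4.17, 4.29 and 2.63 FPKM in WT, a log2 difference of 0.47 (limma adjusted p = 0.329). Its transcript of 13834 nt is the longest among the named members, and WT 3 was its lowest library. Without WT 3 the difference was 0.30. A long noncoding gene on the opposite strand shares 16.6% of its exon bases, and whether the counting used strand is not given in the sources used here.

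Zfp946 (chr17:22424222-22456689, plus strand), in the large cluster on chromosome 17, had 6.09, 5.86 and 4.02 FPKM in the KO-labelled libraries, against 4.03, 3.48 and 3.75 FPKM in WT. KO 3 and WT 1 were nearly equal. Zfp956 had 5.69, 5.18 and 4.01 FPKM in the KO-labelled libraries, against 4.03, 3.24 and 4.05 FPKM in WT, and 9.8% of its exon bases are shared on the same strand with the pseudogene Zfp783. Zfp608 had 4.52, 4.52 and 3.37 FPKM in the KO-labelled libraries, against 4.18, 2.36 and 2.42 FPKM in WT, and its log2 difference of 0.39 was -0.30 with the epithelial covariate. With that covariate Zfp704 had 0.14, Zfp946 had 0.09 and Zfp956 had 0.06. In these 3 members and in Zfp185, KO 3 lay nearest to WT among the KO-labelled libraries, and KO 3 also had the smallest sum of epithelial markers among them, 180 FPKM, with 320 and 330 FPKM in KO 1 and KO 2. The epithelial covariate is partly confounded with group, since all 3 KO-labelled libraries had higher sums than WT.

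The 3 that remain had smaller differences. Zfp46 had 8.397, 8.18 and 8.38 FPKM in the KO-labelled libraries, against 6.54, 8.23 and 5.86 FPKM in WT, where WT 2 lay among the KO-labelled libraries. Zfp422 had 12.3, 12.6 and 11.6 FPKM in the KO-labelled libraries, against 11.0, 11.6 and 9.02 FPKM in WT. Zfp236, with its 30 fingers, had 6.66, 6.82 and 5.85 FPKM in the KO-labelled libraries, against 5.16, 6.67 and 3.75 FPKM in WT, and WT 3 was the lowest library in all 3 of them. Without WT 3 the log2 difference was 0.16 in Zfp46, 0.10 in Zfp422 and 0.11 in Zfp236, against 0.25, 0.20 and 0.29 with all libraries.

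Of the 9 genes listed as regulators of fat cell formation 7 were members, and Zfp407 and Zfp30 lay under 3 FPKM. None of the 7 reached an unadjusted p under 0.05, where 13.6% of all genes tested did. The 7 had a median log2 difference of -0.07, against -0.05 over all genes, and 5 of the 7 were lower (71.4%, against 59.2%). Zfp467, which turns mouse marrow stromal cells towards fat rather than bone, had 17.9, 17.8 and 21.0 FPKM in the KO-labelled libraries, against 20.0, 16.9 and 28.6 FPKM in WT. The groups overlapped, and WT 3 stood above the rest.

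Zfp638, a cofactor of C/EBP proteins in fat cell differentiation, had 10.6, 9.95 and 9.65 FPKM in the KO-labelled libraries, against 9.86, 11.4 and 10.9 FPKM in WT. Zfp516, which binds the Ucp1 promoter and takes part in brown fat formation, had 6.74, 5.57 and 6.17 FPKM in the KO-labelled libraries, against 6.56, 6.51 and 4.26 FPKM in WT. Zfp521, which holds back commitment to the fat cell lineage, had 4.29, 3.26 and 3.34 FPKM in the KO-labelled libraries, against 3.65, 5.01 and 3.01 FPKM in WT. In Zfp516 and Zfp521 the lowest library was WT 3 and the groups overlapped. Zfp217, a transcriptional repressor, ran from 7.24 to 7.94 FPKM in the KO-labelled libraries and from 6.96 to 7.71 FPKM in WT. Zfp395 ran from 16.1 to 21.3 FPKM in the KO-labelled libraries and from 17.9 to 18.6 FPKM in WT.

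All 9 genes listed for RNA decay, translation and ribosome assembly were members. None had an unadjusted p under 0.05, against 13.6% of all genes tested. Of the 9, 8 were lower (88.9%), and the median log2 difference was -0.12. Among the genes tested at 3 FPKM or more 62.9% were lower, with a median of -0.07. With 9 genes these shares are a description. Zfp622, whose yeast counterpart acts in assembly of the large ribosomal subunit, had 9.09, 10.6 and 9.38 FPKM in the KO-labelled libraries, against 9.89, 10.8 and 11.0 FPKM in WT. Zfp326, which couples splicing to transcription, had 10.02, 9.71 and 9.09 FPKM in the KO-labelled libraries, against 10.01, 11.2 and 11.5 FPKM in WT, with KO 1 and WT 1 nearly equal. The values overlapped in both genes.

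Zfp106, an RNA-binding protein needed by motor neurons in mice, ran from 26.0 to 29.6 FPKM in the KO-labelled libraries and from 27.5 to 34.7 FPKM in WT. Zfp706, which at 76 amino acids is the shortest protein among the named members, had 31.8, 26.1 and 31.8 FPKM in the KO-labelled libraries, against 31.9, 29.4 and 39.7 FPKM in WT. Zfp593 had 3.23, 2.53 and 3.24 FPKM in the KO-labelled libraries, against 2.73, 4.41 and 4.80 FPKM in WT, and 77.9% of its exon bases are shared with a coding gene on the opposite strand, so that its level is uncertain. Zfp346, a binder of double-stranded RNA, and Zfp830, a splicing-associated protein, had log2 differences of -0.01 and -0.11 with overlapping groups.

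Among the promoter-binding activators and repressors 11 of 12 listed genes were members, and Zfp161 was not analysed here. Of the 11 members 0 had an unadjusted p under 0.05, against 13.6% of all genes tested. The median log2 difference was -0.06, with 8 lower (72.7%, against 59.2% of all genes tested). Zfp143, which binds the promoters of many housekeeping genes, was the 1 of the 11 whose groups did not overlap. That is 9.09%, against 12.2% of all genes tested with lower values and no overlap. Zfp143 had 3.32, 3.61 and 3.74 FPKM in the KO-labelled libraries, against 3.98, 5.14 and 3.98 FPKM in WT (log2 difference -0.23, limma adjusted p = 0.49, and -0.06 with the epithelial covariate). WT 2 was the high library in it. Zfp410, which in mouse and human cells acts mainly on the promoter of the remodeller gene Chd4, had 11.7, 9.67 and 10.6 FPKM in the KO-labelled libraries, against 10.7, 10.7 and 11.8 FPKM in WT. Chd4 had 43.1, 44.9 and 46.8 FPKM in the KO-labelled libraries, against 48.6, 44.6 and 39.4 FPKM in WT, and both genes overlapped between the groups.

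Zfp148 and Zfp281, related binders of GC-rich promoters, differed in sign. Zfp148 had 11.7, 11.5 and 11.2 FPKM in the KO-labelled libraries, against 10.6, 11.3 and 8.37 FPKM in WT. Zfp281 had 5.11, 5.28 and 5.54 FPKM in the KO-labelled libraries, against 6.18, 6.38 and 4.34 FPKM in WT. WT 3 was the lowest library in both, and in Zfp281 the KO-labelled libraries lay under WT 1 and WT 2. Zfp24 ran from 11.0 to 12.5 FPKM in the KO-labelled libraries and from 11.1 to 12.3 FPKM in WT, a log2 difference of 0.0017. Zfp326, also listed under RNA, was described with those genes. The others, Zfp131, Zfp384, Zfp64, Zfp263 and Zfp513, had log2 differences between -0.22 (Zfp131) and 0.03 (Zfp64).

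Of the 10 genes listed for silencing of repeats and imprinted genes 6 were members, while Zfp57, Zfp568, Zfp819 and Zfp459 lay under 3 FPKM. This list had the lowest median of the 5, -0.17, with 5 of 6 lower (83.3%, against 59.2% of all genes tested) and 3 of 6 lower without overlap (against 12.2% of all genes). With 6 genes these shares are a description. Zfp809 and Zfp932, described above, were among the 3. The third was Zfp182, on the X chromosome, with 4.55, 4.76 and 4.70 FPKM in the KO-labelled libraries, against 5.01, 5.06 and 4.94 FPKM in WT. Its separation was narrow, and the log2 difference was -0.08 (limma adjusted p = 0.725). Zfp809 was the 1 member of the list with an unadjusted p under 0.05 (16.7%, against 13.6% of all genes tested). Every member of the list carried the KRAB-like stretch, and the order of that split did not hold under the length and GC correction. With that correction the log2 difference was 0.0019 in Zfp182 and 0.044 in Zfp942, and -0.21 in Zfp809 and -0.13 in Zfp932. Whether the role itself sets the list apart was not tested.

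Zfp445, which with Zfp57 keeps the methylation of imprinted regions, had 29.4, 31.1 and 30.7 FPKM in the KO-labelled libraries, against 32.4, 32.3 and 25.1 FPKM in WT. WT 3 alone was low, and the log2 difference of 0.03 was -0.09 without it. Zfp57 itself had 2.18, 0.923 and 1.90 FPKM in the KO-labelled libraries, against 1.28, 2.65 and 1.37 FPKM in WT. Zfp961 had 5.78, 5.15 and 5.31 FPKM in the KO-labelled libraries, against 5.84, 5.44 and 9.47 FPKM in WT, where WT 3 was high. Zfp942 had a log2 difference of -0.02, and its near copy Zfp944 one of 0.02.

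Among partners of chromatin, the spindle and ubiquitin, 9 of 13 listed genes were members. Zfp462, Zfp827 and Zfp668 lay under 3 FPKM, and the name of Zfp518a does not have the form of the rule. The 9 had a median log2 difference of -0.01, and 0 had an unadjusted p under 0.05, against 13.6% of all genes tested. Zfp592, Zfp687 and Zfp532, which occur together in a chromatin complex, had log2 differences of -0.01, 0.15 and 0.08. Zfp687 had 9.003, 7.86 and 9.014 FPKM in the KO-labelled libraries, against 8.98, 6.88 and 7.30 FPKM in WT. Zfp644, a partner of the histone methyltransferases EHMT1 and EHMT2, had 9.44, 9.32 and 9.39 FPKM in the KO-labelled libraries, against 9.15, 11.3 and 8.61 FPKM in WT. Its values in the KO-labelled libraries were nearly equal and lay inside the range of WT.

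Zfp219 had 28.5, 29.3 and 27.3 FPKM in the KO-labelled libraries, against 22.9, 21.0 and 30.4 FPKM in WT. WT 3 was the highest of the 6 libraries and the other WT libraries the lowest, and the gene passed the adjusted threshold only with sample weights, where WT 3 had the least weight. Its log2 difference was 0.21 with all libraries and 0.36 without WT 3. Zfp292 had 5.09, 4.98 and 4.83 FPKM in the KO-labelled libraries, against 5.37, 4.57 and 2.49 FPKM in WT, with WT 3 low. Zfp318, with a transcript of 13060 nt, had a log2 difference of -0.03.

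The genes through which KRAB proteins act were measured from a list of 28, of which 27 were tested. None had an unadjusted p under 0.05, against 13.6% of all genes tested. Of the 27, 13 were higher and 14 lower, and the median log2 difference was -0.0007. Trim28, the co-repressor that KRAB domains bind, had 37.7, 39.1 and 39.3 FPKM in the KO-labelled libraries, against 32.7, 35.8 and 36.9 FPKM in WT. The groups did not overlap, and the difference on the log2 scale was 0.14 ± 0.098 (SE; limma adjusted p = 0.565). Setdb1, the histone methyltransferase of the complex, had 9.03, 7.93 and 8.43 FPKM in the KO-labelled libraries, against 8.04, 8.49 and 11.0 FPKM in WT. Dnmt1 and Uhrf1, which copy DNA methylation after replication, were higher without overlap, with log2 differences of 0.25 and 0.33 (limma adjusted p = 0.441 and 0.394). The histone-binding subunit Rbbp4 was lower without overlap, at 30.97, 30.6 and 30.5 FPKM in the KO-labelled libraries, against 34.1, 33.9 and 44.3 FPKM in WT. Of the 27 genes 3 were thus higher without overlap (11.1%, against 10.1% of all genes tested) and 1 lower (3.7%, against 12.2%). These shares are near or under those of all genes.

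Other families of zinc finger genes at the same level stood nearer to 0, but 0 is not the middle of this table. The median log2 difference was -0.05 over all genes tested and -0.07 over those at 3 FPKM or more. The members, at -0.06, lay close to these. The 31 Zbtb-named genes had a median log2 difference of 0.0013, with 2 higher at an unadjusted p under 0.05 (6.45%, against 9.13% of all genes tested). The 14 Zscan- and Zkscan-named genes had a median of 0.0017, with 1 lower (7.14%, against 4.43% of all genes). The difference between these medians and that of the Zfp-named members was not tested.

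Differences within a cluster were mixed. In the large cluster on chromosome 17 the median log2 difference was -0.03, with 9 of 14 members lower, and it held both Zfp946 at 0.40 and Zfp944 at 0.02. All 5 members of a cluster at chr13:67387905-67729173 were lower, with a median of -0.125, and all 5 of one at chr8:69209038-69791178, with a median of -0.16. Both of these clusters consist of members with the KRAB-like stretch. So does one at chr9:20345136-20521417, where 2 of 4 members were lower, with a median of -0.085. Over all genes tested 59.2% were lower. On chromosome 7 a cluster at chr7:4915217-5053723, with 6 members and no KRAB-like stretch, had a median of 0.02. Another at chr7:29768552-30169750, with 7 members, 5 of them with the stretch, had a median of 0.001.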

How the data were processed

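RNA from epididymal white adipose tissue was sequenced in 3 libraries labelled KO and 3 labelled WT, made with a stranded mRNA kit per the labels' protocols. The authors used Cuffdiff 2.2.1, Cufflinks and STAR 2.5.4 on mm10, according to the submitters' processing notes. Nothing on annotation, library scaling, use of strand or treatment of shared reads is given in the sources used here. The deposited table holds 1 column of FPKM values per library, a unit inferred from those tools and from the values, since no header names it. Depth is unknown, so no counting interval is given.

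Among 21853 rows 24 had a symbol seen in another row, and of these the higher was used. Genes averaging 1 FPKM or more, 12539 in all, entered limma 3.58.1 (R 4.3.3) on the log2(FPKM + 1) scale. The model held the group alone, used a mean-variance trend and adjusted p by Benjamini-Hochberg over all of these genes. Differences are KO minus WT on that scale, where the change of a low gene is understated. Simulated data with known changes were used to test the fit. The members and all gene lists were chosen with earlier results of these data known.

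Coordinates, coding sequences, and the length and GC content of the transcript with the longest coding sequence came from GENCODE vM21 on GRCm38, the assembly of mm10, and all 180 members had a record. A C2H2 finger was counted where 2 cysteines spaced by 2 to 5 residues were followed after 12 residues by 2 histidines, or a histidine and a cysteine, spaced by 3 to 5. The KRAB-like stretch was a letter pattern of the KRAB A box, so other KRAB forms can be missed. It was sought towards the amino end of the protein of every transcript, and a match in any of them counted. Promoters came from RefSeq.

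Named members were the 8 with the smallest p in each direction, the 6 highest, all members of the role lists, the 4 on either side of the threshold and the 3 pairs of highest protein identity. Alternatives were pseudocounts of 0.1 and 0.5, no filter, a stricter filter (5 FPKM), quantile normalization, median-ratio scaling, sample weights, no trend, a replicate block, a length and GC correction, the epithelial marker covariate, other thresholds for members and each library left out in turn.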

Additional observations from a re-analysis of the deposited data

How the results depend on the processing

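The 3 members past the threshold with sample weights are named in the report; 970 genes passed there, 482 without WT 1 (0 without any other library) and 0 in the other settings. The 1700 genes at an unadjusted p under 0.05 became 866 to 2195 with a library left out, 974 with the stricter filter, 3914 with sample weights and 165 with the epithelial covariate. The 7 members at that p became 17 with quantile normalization (15 lower, 2 higher), 27 with sample weights (15 lower, 12 higher), 4 with the replicate block, 0 with the covariate and 2 to 9 with a library left out, 2 being without KO 1 and 4 without KO 2. Their median log2 difference was -0.12 with quantile normalization, -0.021 with the covariate and -0.071 to -0.040 with a library left out. Counting members from 1 FPKM (281 genes), from 5 FPKM (118) or from 3 FPKM in each group mean (173) gave -0.05 to -0.06. The co-repressor median was 0.027 with median-ratio scaling, 0.024 with quantile normalization, -0.035 with the length and GC correction, 0.034 with the covariate and -0.022 to 0.036 with a library left out. The replicate block changed no other call. Same-numbered libraries had correlations of 0.23, -0.20 and 0.22 of their deviations, so the numbers were not taken as pairs.

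Of the 63 named members 30 kept their sign under all alternatives, Zfp655, Zfp809, Zfp110 and Zfp68 among them. Sign changes in the others, none with an adjusted p under 0.05 on either side, were as follows; the cause was not tested. With the epithelial covariate the difference was -0.029 in Zfp185, -0.30 in Zfp608, 0.035 in Zfp467, -0.13 in Zfp516, 0.032 in Zfp638, 0.16 in Zfp395, 0.29 in Zfp593, 0.12 in Zfp346, 0.011 in Zfp263, 0.18 in Zfp131, 0.072 in Zfp384, -0.34 in Zfp64, -0.12 in Zfp445, 0.20 in Zfp592, -0.084 in Zfp687, -0.13 in Zfp532, 0.058 in Zfp644, -0.23 in Zfp292, 0.024 in Zfp318 and -0.078 in Zfp971. With quantile normalization the difference was 0.012 in Zfp207, 0.041 in Zfp91, -0.013 in Zfp217, 0.040 in Zfp395, 0.011 in Zfp384, -0.084 in Zfp64, -0.0057 in Zfp532 and -0.12 in Zfp944. With sample weights the difference was 0.026 in Zfp521, -0.032 in Zfp516, 0.034 in Zfp638, 0.037 in Zfp593, 0.084 in Zfp346, 0.018 in Zfp410, 0.064 in Zfp384, -0.14 in Zfp64, 0.0002 in Zfp513, -0.094 in Zfp445, 0.13 in Zfp592, -0.0031 in Zfp687, 0.0084 in Zfp644, -0.034 in Zfp292, 0.069 in Zfp318, -0.0001 in Zfp944, -0.0006 in Zfp971 and 0.040 in Zfp963. With length and GC correction the difference was -0.064 in Zfp516, -0.063 in Zfp217, 0.015 in Zfp346, -0.044 in Zfp64, 0.044 in Zfp942, 0.0019 in Zfp182, -0.017 in Zfp532 and 0.043 in Zfp963. With median-ratio scaling the difference was 0.019 in Zfp395, 0.017 in Zfp346, 0.0046 in Zfp942 and 0.018 in Zfp592. With a library left out, the members whose sign turned at least once ran from -0.33 to 0.032 in Zfp467, -0.20 to 0.094 in Zfp521, -0.077 to 0.18 in Zfp516, -0.0053 to 0.060 in Zfp217, -0.12 to 0.074 in Zfp395, -0.090 to 0.11 in Zfp346, -0.21 to 0.026 in Zfp281, -0.12 to 0.0058 in Zfp410, -0.043 to 0.042 in Zfp24, -0.084 to 0.037 in Zfp384, -0.059 to 0.15 in Zfp64, -0.15 to 0.033 in Zfp513, -0.089 to 0.089 in Zfp445, -0.12 to 0.058 in Zfp942, -0.095 to 0.12 in Zfp592, -0.11 to 0.072 in Zfp644, -0.075 to 0.038 in Zfp318, -0.011 to 0.073 in Zfp944, -0.027 to 0.25 in Zfp971 and -0.13 to 0.0094 in Zfp229. No depth is known, so what counting noise adds to members near 3 FPKM cannot be given.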
